A study of Mus musculus with 4 samples.

Results

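Matrix metalloproteinases and their tissue inhibitors were examined in RNA of mouse nasal mucosa, through 10 genes chosen by name: 7 proteases (Mmp2, Mmp3, Mmp10, Mmp12, Mmp13, Mmp14, Mmp19) and 3 inhibitors (Timp1, Timp2, Timp3), of 19938 genes with a value. Each gene was read from 1 probe set, the only probe set of that gene symbol in the table. The mucosa, lifted off the bone and cartilage of septum and turbinates, came from mice aged 8 weeks, all of the strain written C56BL/6, which were wild type or Duox2-/- and had received PBS or flagellin at 5 ug/ml for 4 h, with 25 ul applied to each nostril. Flagellin is the protein subunit of the bacterial flagellum, and Duox2 is a membrane enzyme of epithelia that makes hydrogen peroxide. Each of the 4 groups (wild type with PBS, wild type with flagellin, Duox2-/- with PBS, Duox2-/- with flagellin) had 1 array of total RNA, so no value below has a replicate, and the number of arrays limits the precision. The labels do not say whether an array held 1 mouse or a pool, nor how the Duox2 allele was made.

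Values are log2 signals of an Affymetrix array, so a difference of 1 is 2-fold. Array medians lay between 6.48 and 6.56, and the interquartile range was narrower in the Duox2-/- arrays (2.54 with PBS and 2.43 with flagellin) than in the wild-type arrays (2.79 and 2.73). Duox2 itself was dim everywhere, with log2 values of 4.95 (PBS) and 5.12 (flagellin) in wild type and of 5.23 and 5.50 in the libraries labelled Duox2-/-, where it was not lower. Which exons the knockout removes, and whether the probes read them, is unknown here, so this value does not check the genotype and those arrays are called by their label. Markers of the tissue were present. The 6 olfactory neuron markers averaged 10.3 to 10.7 in the 4 arrays and the 6 ciliated cell markers 7.81 to 8.21. All 12 were above the level mark described next.

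Matrix metalloproteinases are zinc proteases that cut collagens, elastin and other components of the extracellular matrix. They are made as inactive precursors, and their output is set by transcription, by activation of the precursor and by the TIMP proteins, which block the active site. In mucosa they come from stromal cells, bone and cartilage cells, epithelium and leukocytes, and several are known to be induced in inflammation.

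Promoter sequences are set out here by genome position. Mmp13, Mmp12, Mmp3 and Mmp10 lie in a row of 10 metalloproteinase genes on chromosome 9, with no other protein-coding gene between the outer 2 in RefSeq (GRCm38.p6), and the other members lie on other chromosomes. The RefSeq promoter table holds 8 of the 10 members, with 9 start sites. Mmp2 and Mmp19 had no entry. Shown are the 120 bases before the start site for the 4 genes of the row and, for contrast, for Mmp14 and Timp1, from elsewhere in the genome, whose flagellin differences had the same signs as those of Mmp13. Capitals mark matches to TGANTCA, the core of an AP-1 site. Capitals also mark the TATA box letters TATAAA. Both strands were searched for each, and no matches overlapped in these stretches.
Mmp13, chr9:7272394-7272513, plus strand: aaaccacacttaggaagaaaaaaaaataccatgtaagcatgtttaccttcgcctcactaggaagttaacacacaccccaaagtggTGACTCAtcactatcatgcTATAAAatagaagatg
Mmp3, chr9:7445702-7445821, plus strand: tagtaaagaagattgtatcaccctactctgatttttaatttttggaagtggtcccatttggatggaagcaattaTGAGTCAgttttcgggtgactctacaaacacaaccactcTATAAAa
Mmp10, chr9:7502222-7502341, plus strand: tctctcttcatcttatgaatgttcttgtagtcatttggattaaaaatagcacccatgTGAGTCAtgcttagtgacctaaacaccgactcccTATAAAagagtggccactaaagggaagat
Mmp12, the second of 2 listed starts, chr9:7347254-7347373, plus strand: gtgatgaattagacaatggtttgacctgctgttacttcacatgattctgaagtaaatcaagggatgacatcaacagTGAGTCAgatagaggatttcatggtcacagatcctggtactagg
Mmp14, chr14:54431478-54431597, plus strand: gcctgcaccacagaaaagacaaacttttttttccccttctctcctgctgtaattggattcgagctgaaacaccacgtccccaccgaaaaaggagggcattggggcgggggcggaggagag
Timp1, chrX:20870046-20870165, plus strand: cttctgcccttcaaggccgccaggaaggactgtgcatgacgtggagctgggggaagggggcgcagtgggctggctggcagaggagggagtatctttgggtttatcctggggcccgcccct

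All 4 genes of the chromosome 9 row had an AP-1 core in the 250 bases before a start, beginning 35 bases before it in Mmp13, 46 in Mmp3, 63 in Mmp10 and 44 at the second start of Mmp12. Over all 32851 start sites of the table, 6.75% held the AP-1 letters in a window of this length, 12.4% held TATAAA and 1.21% held both. Mmp13, Mmp3 and Mmp10 held both. The other listed start of Mmp12, and those of Mmp14, Timp1, Timp2 and Timp3, held neither. The G and C content of the window was 37.2% to 40.4% in the row and 54.4% to 68% in the other 4 genes. Of those 4 only Mmp14 codes for a protease, so position cannot be told apart here from protease against inhibitor.

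A gene was compared with the rest of the array only if its highest value reached 6.52, the median of all values, used here as a level mark. Of the 10 genes, 6 reached it (Mmp2, Mmp13, Mmp14, Timp1, Timp2 and Timp3) and 4 lay below it in every array (Mmp3, Mmp10, Mmp12 and Mmp19). Over the array 12471 genes reached it. Signals of different probe sets also depend on their probes, so the mark does not rank the genes by expression.

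**Figure D1:**
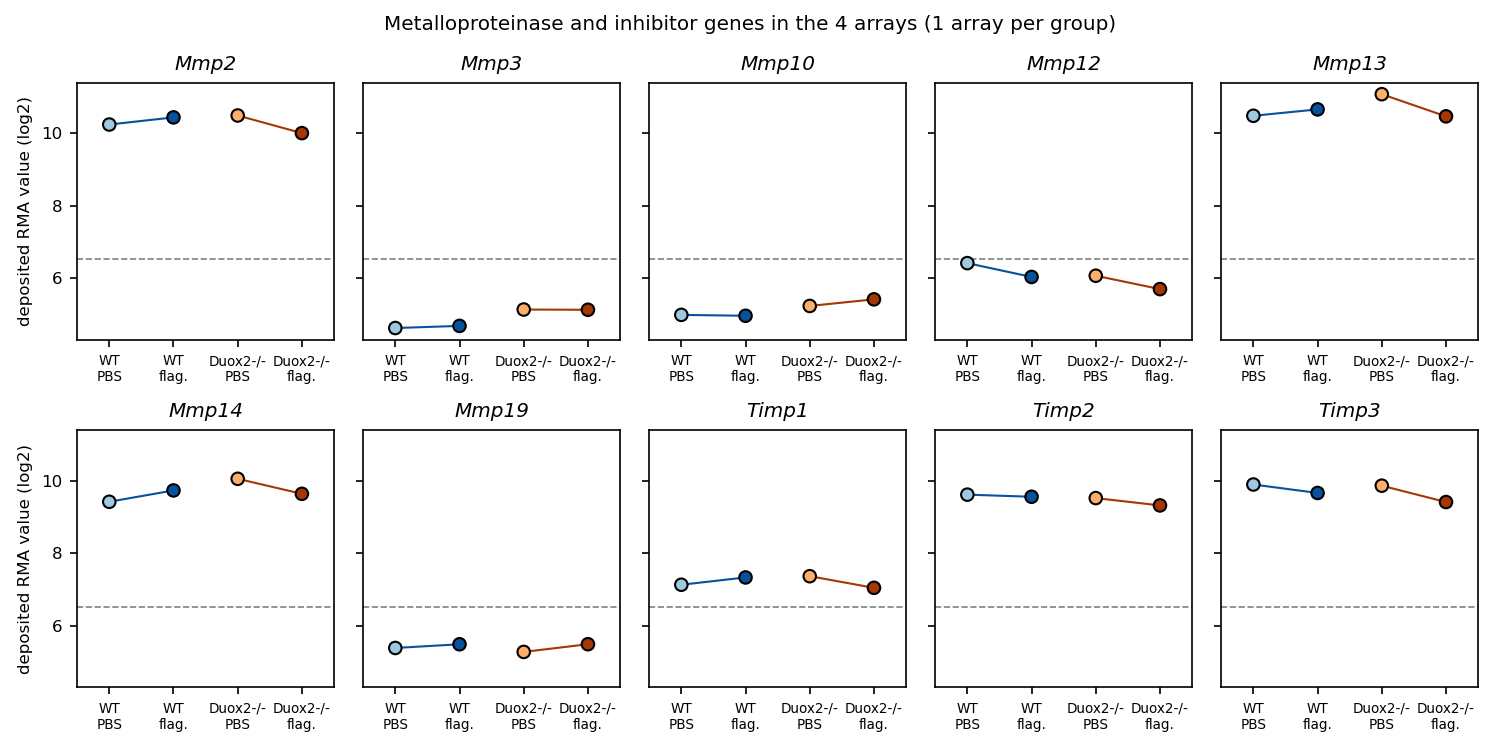
Deposited log2 values (y axis) of the 10 genes in the 4 arrays, 1 point per array, with a line joining PBS to flagellin within a genotype and a dashed line at the level mark of 6.52. The points of Mmp3, Mmp10, Mmp12 and Mmp19 all lie under the mark, and no gene has a range over 1 log2 unit.

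No member was 2-fold apart in any comparison of 2 arrays. The largest of the 40 differences was that of Mmp14 between the PBS arrays, 0.64 on the log2 scale or 1.55-fold. With flagellin in wild type, 0.922% of all tested genes passed 2-fold upward and 0.0561% downward, so 6 bright genes with none past this size are near the background. The range over the 4 arrays was 0.64 for Mmp14, 0.61 for Mmp13, 0.49 for Mmp2, 0.48 for Timp3, 0.32 for Timp1 and 0.30 for Timp2. Wider ranges belonged to 15.9%, 17.3%, 27.9%, 28.2%, 52.1% and 56.7% of the tested genes, in the same order. The rule set for naming genes of like pattern asked for a range of 1, which no member reached, so none is named.

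Mmp13 (probe set 10583044), the main collagenase of mouse bone and cartilage, had log2 values of 10.49 (wild type, PBS), 10.67 (wild type, flagellin), 11.09 (Duox2-/-, PBS) and 10.47 (Duox2-/-, flagellin). The PBS array labelled Duox2-/- was the high one and the other 3 lay between 10.47 and 10.67. Flagellin minus PBS was 0.18 for wild type and -0.61 for the arrays labelled Duox2-/-.

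Mmp14 (probe set 10415052), a membrane-anchored protease that cuts collagen and activates the precursor of Mmp2, had 9.42, 9.74, 10.06 and 9.64 in the same order. Again the PBS array labelled Duox2-/- was highest, and wild-type PBS was lowest. Its flagellin difference was 0.31 for wild type and -0.42 for the arrays labelled Duox2-/-. Mmp2 (probe set 10573924), a gelatinase, had 10.25, 10.44, 10.50 and 10.01, with differences of 0.20 and -0.49. Here the lowest array was flagellin labelled Duox2-/-.

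The inhibitor Timp1 (probe set 10598976), known as an inflammation-induced member of its family, had 7.13, 7.33, 7.37 and 7.05. Its flagellin difference was 0.20 for wild type and -0.32 for the arrays labelled Duox2-/-, the same signs as in the 3 bright proteases. Timp2 (probe set 10393559), which also bridges Mmp14 and the precursor of Mmp2 at the cell surface, had 9.62, 9.56, 9.53 and 9.32 and had negative flagellin differences in both genotypes, -0.058 and -0.20. Timp3 (probe set 10365482), which is held in the matrix and also blocks ADAM proteases, had 9.90, 9.67, 9.87 and 9.42, with differences of -0.23 and -0.45. Both flagellin arrays lay under both PBS arrays for Timp3. In 5 of the 6 bright members (all but Mmp14) the flagellin array labelled Duox2-/- was the lowest, beside 51% of tested genes. After cyclic loess or quantile normalisation it was the lowest in 4, without Mmp13, beside 35.6% and 37.5%. The PBS array with that label was the highest in 4 (Mmp2, Mmp13, Mmp14 and Timp1), beside 17.4%. That count was 2 (Mmp13 and Mmp14) when arrays were centred on their medians, beside 9.58%. It was 5, with Timp3, after cyclic loess or quantile normalisation, beside 16.4% and 17.1%.

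Among the dim genes Mmp12 (probe set 10583056), the macrophage elastase, had 6.42, 6.03, 6.07 and 5.70. Its flagellin differences were -0.38 for wild type and -0.37 for the arrays labelled Duox2-/-. The stromelysin genes Mmp3 (probe set 10583071) and Mmp10 (probe set 10583090) stayed within 4.62 to 5.13 and 4.96 to 5.41. Their flagellin differences were 0.059 and -0.0070 for Mmp3 and -0.025 and 0.18 for Mmp10. Mmp19 (probe set 10367400) had 5.38, 5.49, 5.27 and 5.49, with differences of 0.10 and 0.21.

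**Figure D2:**
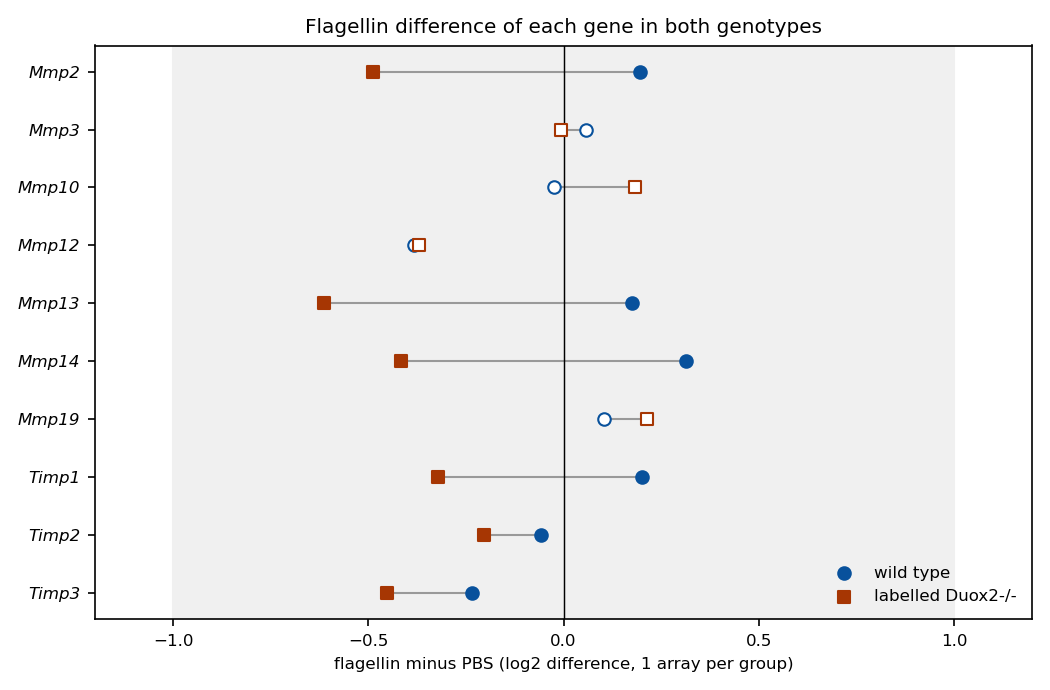
Log2 difference between the flagellin and the PBS array (x axis) for each gene, with circles for wild type, squares for the arrays labelled Duox2-/- and open symbols for genes under the level mark in all arrays. The grey band spans differences under 2-fold, and all 20 symbols lie inside it.

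With flagellin in wild type, the question was whether the bacterial protein shifts these genes in normal mucosa. The 3 bright proteases had differences of 0.18 to 0.31 and the 3 inhibitors of -0.23 to 0.20. The median over all 10 genes was 0.081, beside -0.0018 over the tested genes. None of the 6 bright members reached even 1.5-fold, a size chosen after seeing that none reached 2-fold, as did 2.36% of tested genes upward and 0.569% downward.

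In the arrays labelled Duox2-/-, the same comparison gave negative values for all 6 bright members, from -0.61 for Mmp13 to -0.20 for Timp2, and this sign held under the 3 other scalings tried. The median over the 10 genes was -0.35, beside -0.070 over the tested genes, 62.2% of which were below 0. Past 2-fold were 0 of 6 members, beside 0.176% of tested genes upward and 0.505% downward. At 1.5-fold, Mmp13 alone passed downward, beside 3.13% of tested genes, but at -0.51 and -0.52 it fell short of this size after cyclic loess or a further quantile normalisation.

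The PBS arrays were compared to ask how the mucosa labelled Duox2-/- differed without flagellin. The bright proteases were higher in the array labelled Duox2-/-, Mmp14 by 0.64, Mmp13 by 0.60 and Mmp2 by 0.25, and among the inhibitors Timp1 was at 0.24, Timp3 at -0.033 and Timp2 at -0.095. The sign for Timp3 turned to 0.017 after cyclic loess and 0.0032 after quantile normalisation. At 2-fold 0 of 6 passed, beside 1.13% of tested genes upward and 0.281% downward. Of the genes past 2-fold, 80.1% were higher in the array labelled Duox2-/-, and 69.4% when arrays were centred on their medians. At 1.5-fold, 2 of 6 passed upward (Mmp14 and Mmp13), beside 3.12% of tested genes, and with arrays centred on their medians both fell short, at 0.55 and 0.51.

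Dim genes as a whole were higher in the arrays labelled Duox2-/-. Over the 7467 genes that missed the level mark, the median difference was 0.21 with PBS and 0.28 with flagellin, and 79.8% were above 0 in each. Mmp3 was at 0.51 and 0.45 in these comparisons and Mmp10 at 0.25 and 0.45. After cyclic loess Mmp3 was at 0.28 and 0.15 and Mmp10 at 0.017 and 0.15. Mmp12 went the other way, at -0.35 and -0.34, and at -0.51 and -0.54 after cyclic loess.

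Between the flagellin arrays, all 6 bright members were lower in the array labelled Duox2-/-, from -0.094 for Mmp14 to -0.43 for Mmp2, but Mmp14 was at 0.071 after cyclic loess and 0.050 after quantile normalisation. The tested genes had a median of -0.12 here and 66.8% of them were below 0. At 2-fold 0 of 6 passed, beside 0.353% upward and 1.65% downward, and at 1.5-fold 0 of 6, beside 4.57% upward and 6.54% downward.

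The difference between the flagellin responses, wild type minus the arrays labelled Duox2-/-, asks whether the genotypes responded unlike each other. It was 0.79 for Mmp13, 0.73 for Mmp14, 0.68 for Mmp2, 0.52 for Timp1, 0.22 for Timp3 and 0.14 for Timp2. Over the tested genes its median was 0.067, and 59.9% were above 0. That median was -0.0040 after cyclic loess. Opposite signs, above PBS in wild type and below it in the other genotype, were found in 4 of the 6 (Mmp2, Mmp13, Mmp14, Timp1), beside 30% of tested genes. The reverse pattern was found in 0 of 6, beside 18.3%. At 2-fold 0 of 6 passed, beside 1.44% of tested genes above 0 and 0.136% below 0, and at 1.5-fold the 3 proteases passed, beside 5.83% above 0 and 1.26% below 0, though Mmp2 fell short at 0.57 after cyclic loess. With 1 array in each group this difference has no test.

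An additive limma fit over the 12471 tested genes estimated 1 flagellin effect over both genotypes and 1 genotype effect over both treatments. It rests on 2 arrays per treatment and 2 per genotype, and its 1 residual degree of freedom is the difference between the responses. To this limma adds a prior variance drawn from all tested genes, with 7.48 degrees of freedom. The standard errors and intervals of a gene therefore lean mostly on that prior. No member passed at an adjusted p of 0.05 for flagellin, where 0.241% of tested genes were called higher and 0.0401% lower, and at an unadjusted p under 0.05 limma had 805 genes, of which Timp3 was the only member. Timp3 had a limma shift of -0.34 ± 0.13 (SE), with a 95% interval from -0.65 to -0.039 and an adjusted p of 0.667, which was 0.513 to 0.888 over the settings tried. The intervals of the other members held 0, and ran from -0.64 to 0.21 for Mmp13, from -0.46 to 0.36 for Mmp14 and from -0.54 to 0.25 for Mmp2. The widest downward bound was that of Timp3. In Mmp2, Mmp13, Mmp14 and Timp1 the flagellin differences of the 2 genotypes had opposite signs, which offset each other in the flagellin shift. The fit could therefore hardly call these genes, and its result does not show that flagellin left them unchanged.

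For genotype no member passed in limma either, beside 2.39% of tested genes called higher and 1.98% lower. Of all tested genes, 2888 had an unadjusted p under 0.05 in this fit and 0 members did. The genotype differences of Mmp2, Mmp13, Mmp14 and Timp1 also had opposite signs with PBS and with flagellin, so the same limit holds. Mmp14 had the smallest adjusted p, 0.404, with a limma shift of 0.27 ± 0.18 (SE) and an interval from -0.14 to 0.68. The share of genotype calls that were higher was 54.7%, and 32.9% when arrays were centred on their medians.

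Matrix genes, which code for what these proteases cut, mostly had the signs of Mmp2, Mmp13 and Mmp14. Of 17 matched matrix genes, 16 were above 0 with flagellin in wild type (median 0.20), beside 49.5% of tested genes. In the arrays labelled Duox2-/- the median was -0.38 and 1 gene, Col2a1, was above 0, beside 37.8% of tested genes. Between the PBS arrays 16 were higher in the array labelled Duox2-/- (median 0.46), beside 42.3%. Col3a1, a fibrillar collagen, was at 0.34, -0.54 and 0.59 in these comparisons and elastin (Eln) at 0.12, -0.85 and 0.99. Vcan, the large proteoglycan versican, was the only one past 2-fold in a pairwise comparison, at 1.27 between the PBS arrays, with log2 values of 6.04, 6.28, 7.31 and 6.45. No gene of this list passed limma in either term.

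ADAM and ADAMTS proteases, relatives that shed surface proteins or cut proteoglycans, had medians of 0.14 and -0.27 for flagellin in the 2 genotypes. Above 0 were 11 and 3 of 14, beside 49.5% and 37.8% of tested genes. The proteoglycan-cutting Adamts1 and Adamts5 were at 0.26 and 0.22 in wild type and at -0.75 and -0.87 in the other genotype, so that their responses differed by 1.01 and 1.09, untested. None of the 11 that were bright enough was 2-fold apart in a pairwise comparison or passed limma.

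Activators and other inhibitors of these proteases had flagellin medians closer to 0, at 0.091 and 0.060, with 6 of 10 above 0 in each genotype. Single genes ran from -0.13 to 1.03 in wild type and from -0.34 to 0.39 in the other genotype. The shares above 0 were 49.5% and 37.8% over tested genes and 56.4% and 66.9% over dim genes. Plat, the tissue plasminogen activator, was at 0.41 and 0.30, and Reck, a membrane-anchored inhibitor, at 0.14 and -0.34. Between the flagellin arrays 8 of the 10 were lower in the one labelled Duox2-/- (median -0.32), beside 66.8% of tested genes and 20.1% of dim genes. Of the 5 bright genes none was 2-fold apart and none passed limma. Serpinb2, an inhibitor of plasminogen activators that was dim in all arrays and is named after its values were seen, had 5.36, 6.39, 5.11 and 4.84.

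Cytokines known to induce metalloproteinases were above 0 with flagellin in wild type in 7 of 7 genes (median 0.49) and in 6 of 7 in the other genotype (median 0.35). The shares above 0 were 56.4% and 66.9% over dim genes and 49.5% and 37.8% over tested genes. In wild type Osm and Il6 were only at 0.010 and 0.011. Il1b was the only cytokine of the list called, rising by 1.196 ± 0.13 (SE) in limma with an adjusted p of 0.0173. This call was lost in limma after cyclic loess (adjusted p of 0.147) and with arrays centred on their medians (0.0661). Of the 7 only Il1b and Tgfb1 were bright, and Tgfb1, an inducer of matrix genes, was at 0.49 in wild type and -0.37 in the other genotype. The transcription factors that bind metalloproteinase promoters had medians of 0.020 and 0.086 over 16 genes, with the AP-1 subunits Fos at -0.15 and 0.021 and Jun at 0.27 and 0.20. In this list only Elf3, an epithelial Ets factor, was 2-fold apart, at -1.23 between the flagellin arrays, and its limma genotype shift was -0.87 ± 0.18 (SE) with an adjusted p of 0.0396, which was 0.130 after cyclic loess, 0.0638 with arrays centred on their medians and 0.0604 after quantile normalisation.

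Markers of stromal and skeletal cells followed the bright proteases in part. The 8 fibroblast markers averaged 9.64, 9.83, 9.99 and 9.51 in the order used above, and 4 of the 8 are also in the matrix list. For flagellin 6 were above 0 in wild type and 1 in the other genotype, beside 49.5% and 37.8% of tested genes. The 9 cartilage and bone markers averaged 7.47, 7.68, 7.67 and 7.43. Beside 42.3% of tested genes higher, 5 were higher and 4 lower in the array labelled Duox2-/- between the PBS arrays. Ibsp, a protein of mineralised matrix, was at 1.22 there, while Col10a1, the collagen of hypertrophic cartilage, was at -1.23. Col10a1 was the only marker of this list called by limma, with a genotype shift of -1.34 ± 0.13 (SE) and an adjusted p of 0.0062. After cyclic loess limma called 0 genes lower for genotype over the whole array, so this call was lost. Osteoclast markers, 6 in number, averaged 7.37, 7.39, 7.91 and 7.58, and the collagen-degrading osteoclast protease Ctsk had 10.06, 10.11, 10.87 and 10.28. This list had a median flagellin difference of 0.037 in wild type, with 4 of 6 genes above 0. For the other genotype that median was -0.35, with 5 of 6 below 0, beside 62.2% of tested genes. Between the PBS arrays all 6 were higher in the one labelled Duox2-/- (median 0.51). Higher in that comparison were 42.3% of tested genes and 79.8% of dim genes. Between the flagellin arrays 4 of its 6 genes were higher in the one labelled Duox2-/- (median 0.29), where all 6 bright members were lower. Of these 4, the dim Calcr and Dcstamp were at 0.54 and 0.42 and the bright Ocstamp and Ctsk at 0.47 and 0.17. Between the flagellin arrays 33.2% of tested genes and 79.8% of dim genes were higher.

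Other tissues differed more. The 7 tooth markers averaged 4.80, 4.75, 6.84 and 5.46, and the 10 skeletal muscle markers 5.27, 6.66, 7.71 and 5.77, both highest in the PBS array labelled Duox2-/-, as Mmp13 and Mmp14 were. The 5 smooth muscle markers averaged 8.15, 8.23, 8.60 and 8.01. Endothelial markers (8 genes) averaged 7.60, 7.56, 7.56 and 7.04 and were lowest in the flagellin array labelled Duox2-/-. The markers under the level mark in all arrays were Pi16 among fibroblast genes, Matn1 among cartilage genes, Calcr and Dcstamp among osteoclast genes, Enam, Amtn, Mmp20 and Klk4 among tooth genes, Actn3 and Mylpf among muscle genes and Des of smooth muscle. The part of these cells in the differences of the metalloproteinases was not tested, and in bulk RNA fewer cells of a type and less RNA per cell cannot be told apart.

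**Figure D3:**
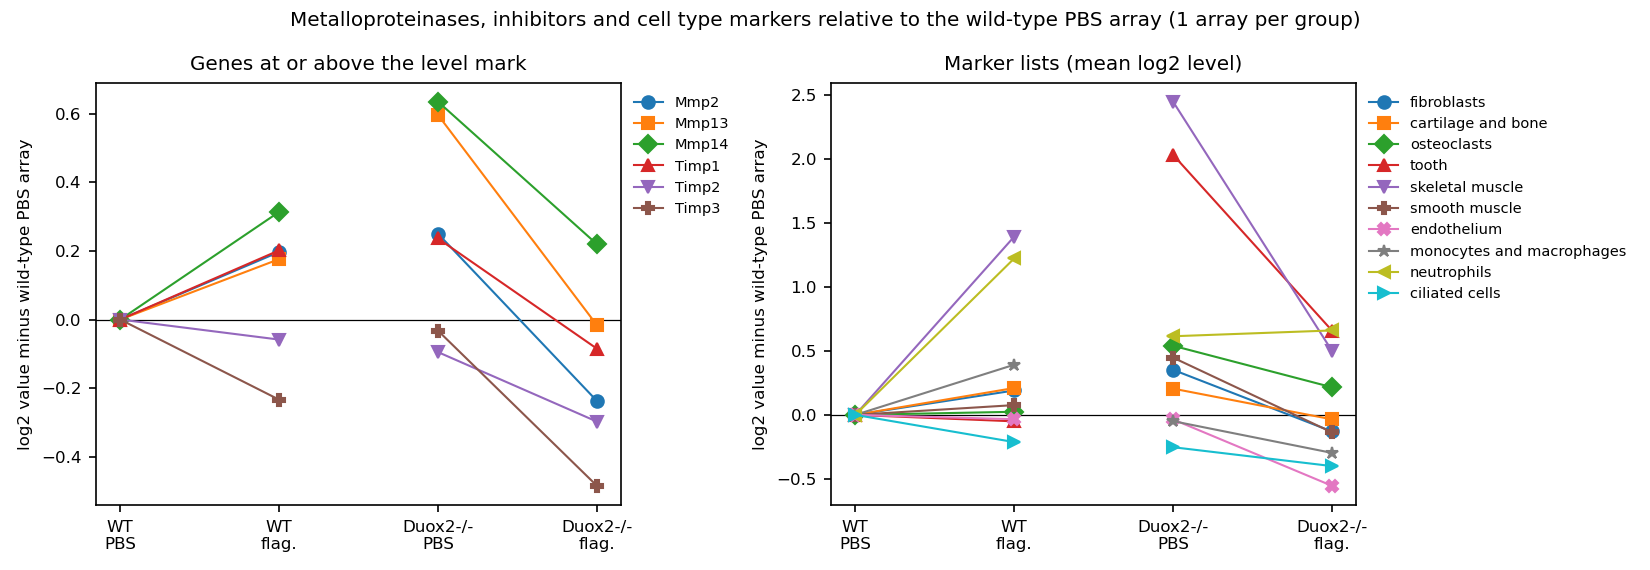
Log2 value minus that of the wild-type PBS array (y axis, different scales) for the 6 bright genes on the left and for the mean of each marker list on the right, in the 4 arrays, with lines joining PBS to flagellin within a genotype. Mmp13 and Mmp14 stand highest in the PBS array labelled Duox2-/-, as do the means of the fibroblast, osteoclast, tooth, skeletal muscle and smooth muscle lists.

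The 11 neutrophil markers averaged 6.31, 7.53, 6.92 and 6.97 and the 10 monocyte and macrophage markers 6.86, 7.25, 6.81 and 6.56, both highest in wild-type flagellin. Ly6g, Mmp8 and Camp of the first list and Marco of the second were dim. No bright member was highest in the wild-type flagellin array, beside 26.8% of tested genes. When arrays were centred on their medians Mmp2 and Timp1 were highest there, beside 28.1%. The monocyte and macrophage list was above 0 for flagellin in 10 of 10 genes in wild type and in 2 in the other genotype. The shares of tested genes above 0 were 49.5% and 37.8%. Mmp12, which macrophages make, was highest in wild-type PBS.

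Of the other metalloproteinases and Timp4, 16 were matched and 4 were bright. Mmp9, a gelatinase of neutrophils and osteoclasts, had 8.83, 8.77, 9.26 and 9.0, with flagellin differences of -0.060 and -0.26, and so was not higher in wild-type flagellin while the neutrophil list, to which it and Mmp8 belong, had a median difference of 1.15 there. Timp4 had 6.86, 6.71, 6.70 and 6.14, Mmp16 had 8.06, 8.38, 8.34 and 8.28, and Mmp24 had 6.53, 6.36, 6.63 and 6.96. None was 2-fold apart or passed limma.

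Along the chromosome 9 row, Mmp8 was the exception. This collagenase of neutrophil granules, named after its values were seen, had 4.21, 6.07, 5.04 and 5.30, a flagellin difference of 1.86 for wild type and 0.26 for the other genotype, and it lay under the level mark in every array. Its neighbours on either side, Mmp10 and Mmp27, were at -0.025 and 0.033 in wild type. The other 9 genes of the row had wild-type differences from -0.38 to 0.18. Mmp20, the enamel protease, was dim in every array and was higher in the PBS array labelled Duox2-/- by 0.80, beside 0.60 for the bright Mmp13. Over all dim genes the median of this comparison was 0.21, and 79.8% were above 0.

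**Figure D4:**
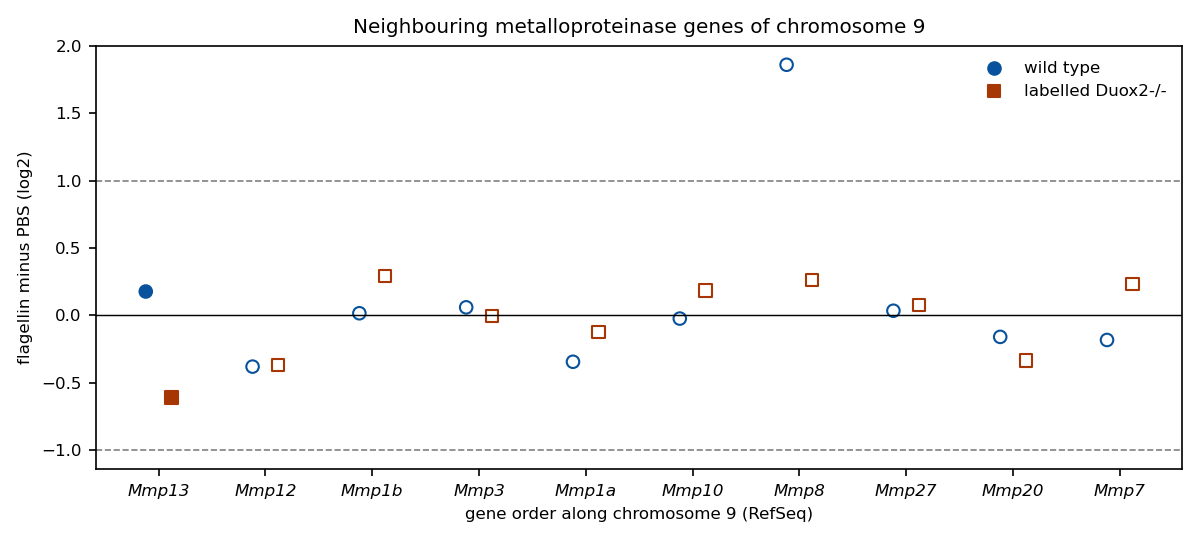
Log2 difference between flagellin and PBS (y axis) for the 10 metalloproteinase genes of chromosome 9 in their RefSeq order (x axis, not to scale), with circles for wild type, squares for the arrays labelled Duox2-/-, open symbols for genes under the level mark and dashed lines at 2-fold. The wild-type circle of Mmp8 at 1.86 is the only symbol past a dashed line.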

How the data were processed

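The series' value table held 4 arrays with log2 values that the authors had made with RMA in Affymetrix Expression Console 1.1, per the submitters' processing notes. RMA corrects background, equalises the arrays' distributions and summarises each probe set, so differences between arrays in overall RNA amount are not kept. The log2 scale is read from the deposited values, which run from 1.43 to 13.7. No source used here gives the genome build of the probe sets.

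Of 35556 probe sets, 21789 were paired with 1 gene symbol in GEO's platform annotation, 1621 with several and 12146 with none listed. The probe set with the highest 4-array mean stood for a gene, which left 19938 genes. Genes whose highest value reached the median of all values (6.52) were tested, 12471 in all.

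Comparisons were differences of log2 values, counted at 2-fold with no p-value, since each group had 1 array. The additive fit (treatment plus genotype) used limma 3.58.1 in R 4.3.3 (lmFit, eBayes, Benjamini-Hochberg over all tested genes), with 1 residual and 7.48 prior degrees of freedom. The fit was also run on simulated data with the same noise level for all genes and shifts common to both genotypes. That run cannot show how the fit does where the genotypes respond unlike each other. Python 3.11.15, numpy 2.4.6, pandas 2.3.3 and matplotlib 3.10.9 did the rest.

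The members and gene lists were chosen with earlier results of these data known. Named were all 10 members, genes of the related lists that were bright and past 2-fold, and others said to be chosen after their values were seen or given as examples of a list. Alternatives were centring each array on its median, cyclic loess, quantile normalisation, the mean over probe sets, no filter on level, a filter on the mean level and a prior variance that follows the level. Genes of the lists that were not analysed here include Mmp15, Serpine2, Adamts2, Spp1, Runx2, Nfkb1 and Bglap. Motifs were searched in RefSeq promoter sequences of GRCm38.p6, matched by symbol. The lists of squamous and basal epithelium, with mean log2 values of 6.13, 7.00, 5.62 and 5.39 and of 8.93, 9.09, 8.28 and 7.57 in wild-type PBS, wild-type flagellin, PBS labelled Duox2-/- and flagellin labelled Duox2-/-, are not described further.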

Additional observations from a re-analysis of the deposited data

Results flagged for a closer look

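In 4 bright members the flagellin array lay above PBS in wild type and below it in the arrays labelled Duox2-/-. The wild-type response minus the other was 0.79 for Mmp13, 0.73 for Mmp14, 0.68 for Mmp2 and 0.52 for Timp1, and these differences were not tested. Opposite signs in this direction were found in 30% of tested genes. Over all tested genes the wild-type response minus the other had a median of 0.067, and 59.9% were above 0. After cyclic loess the median over tested genes was -0.0040. Most marker lists also had a median above 0 for this difference. It was 3.39 for skeletal muscle, 1.32 for tooth, 1.07 for squamous epithelium, 0.96 for neutrophils, 0.85 for basal cells, 0.76 for fibroblasts, 0.59 for monocytes and macrophages, 0.55 for endothelium, 0.54 for smooth muscle, 0.49 for cartilage and bone and 0.42 for osteoclasts, and it was -0.089 for ciliated cells and -0.22 for olfactory neurons. The matrix gene list had a median of 0.56. The part of these cells in the differences of the 4 genes was not tested.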

How the results depend on the processing

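No member passed 2-fold in a pairwise comparison, and none was called by the additive limma fit, in the main analysis or in any alternative run. Counted at 1.5-fold, chosen after seeing the data, 1 passed for flagellin in the arrays labelled Duox2-/-, 2 between the PBS arrays, 3 for the difference between responses and 0 in the other comparisons. Of 150 values of members under the 3 other scalings, 9 changed sign, all from a size of at most 0.094 and to a size of at most 0.29. The largest move among the 150 was 0.30. Counts over all genes moved more. With no filter on level, genes at least 2-fold apart were 11 lower (7 in the main analysis) for flagellin in wild type, 44 higher (22) for flagellin in the arrays labelled Duox2-/-, 267 higher (141) between the PBS arrays, 95 higher (44) between the flagellin arrays, and 276 above 0 (180) and 42 below 0 (17) for the difference between responses. With a filter on the 4-array mean they were 64 higher (115) and 4 lower (7) for flagellin in wild type, 11 higher (22) and 36 lower (63) in the arrays labelled Duox2-/-, 68 higher (141) and 20 lower (35) between the PBS arrays, 22 higher (44) between the flagellin arrays, and 109 (180) and 9 (17) for the difference between responses. These filters change the number of genes tested. The limma flagellin calls, 30 higher and 5 lower, became 7 and 0 with arrays centred on their medians. After cyclic loess they were 0 and 0, where limma had 687 genes with p under 0.05 before adjustment. They were 30 and 2 after quantile normalisation, 52 and 8 with no filter and 18 higher with the filter on the mean. With a prior variance that follows the level they were 53 and 28. The limma genotype calls were 298 higher and 247 lower. Under the same settings, in the same order, they became 53 and 108, 1 and 0, 142 and 129, 1402 and 477, 187 higher, and 608 lower. The cause was not tested. Where only 1 direction is named for a setting, the other is not given here, so that count is not all of its calls. No paired analysis was possible because each group had 1 array, and for the same reason no array could be left out of a comparison. The level of each signal over its background is unknown, which limits the 4 dim members most.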
